A study of Bursaphelenchus xylophilus with 12 samples.

Results

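The genes described here are 150 transcripts of the pine wood nematode Bursaphelenchus xylophilus that stood lower at 24 h than at 12 h both with and without emamectin benzoate and reached 24 h levels near each other. They were chosen from 18036 listed gene IDs, of which 17704 start with BXY. The choice considered the 10333 BXY IDs with a mean FPKM of 5 to under 800 over all 12 libraries. FPKM counts fragments for each kilobase of gene, relative to how many fragments the library holds. On the log2(FPKM + 1) scale, an ID had to have a spread between 12 h replicates under 0.6 (the square root of the mean of the EB12 and EC12 variances). It also had to have a difference between EB24 and EC24 within 0.5, which left 7046 IDs. The 150 with the deepest falls were taken, each ID being ranked by the shallower of its 2 falls. The size of one fall relative to the other was not bounded. All 4 group means and the 12 h spread therefore chose the members, so the falls and the differences between agents are given as a description.

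Adults of strain NB-6 were immersed at 25 °C, 200 to a library, after growth on the fungus Botrytis cinerea. EB24 worms (3 libraries) were held for 24 h in 0.1 mg/L emamectin benzoate (EB). EC24 worms (3 libraries) were held for 24 h with the adjuvants octylphenol polyoxyethylene-10 and n-butyl alcohol at the matching concentration. EB12 and EC12 worms (3 libraries each) were held in the same way for 12 h. The labels do not spell out EC. It was read as the adjuvant because the design names no other agent. Untreated worms are not among these groups. Males and females, and tissues, were not separated. In such whole-worm RNA, fewer cells of a type and less RNA per cell cannot be told apart.

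Emamectin benzoate is an avermectin. Avermectins hold open glutamate-gated chloride channels of nematode nerve and muscle and so silence movement and pharyngeal pumping. The adjuvants, a non-ionic surfactant and an alcohol, carry the agent in water. A transcript's level is the balance of its synthesis and its decay. The table gives IDs without symbols or descriptions, so the products of the members are not named here and no pathway is assigned to them. No gene list could be matched, and the adult stage could not be checked against marker genes.

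The libraries differed between the times beyond these genes. Summed FPKM over all IDs was 924230 ± 6671 in EB24 and 939269 ± 6264 in EC24, against 865643 ± 4773 in EB12 and 831384 ± 12335 in EC12 (SD, n = 3 each). Replicates at 12 h were less alike than those at 24 h. The labels name no batch or date, and the 12 h titles carry a group number that the 24 h titles lack, so a batch, if there was one, cannot be told apart from time. The labels do not say that replicates were separate cultures. Each p-value thus rests on library-to-library variation that could be technical alone.

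All 150 members were lower at 24 h in both agents by construction, and the sizes of the falls were moderate. The EB24 mean FPKM was a median of 46.4% of the EB12 mean, with a range of 9.91% to 56.7% over members. The EC24 mean was a median of 35.4% of the EC12 mean, with a range of 8.78% to 54.2%. On the log2(FPKM + 1) scale the median change was -0.997 in EB and -1.39 in EC, beside 0.09 and -0.03 over the 10333 IDs considered. Both falls were past 1 log2 unit in 73 members, past 1.5 in 18 and past 2 in 7. The plot of one change against the other shows where the members lie among the other IDs.

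**Figure D1:**
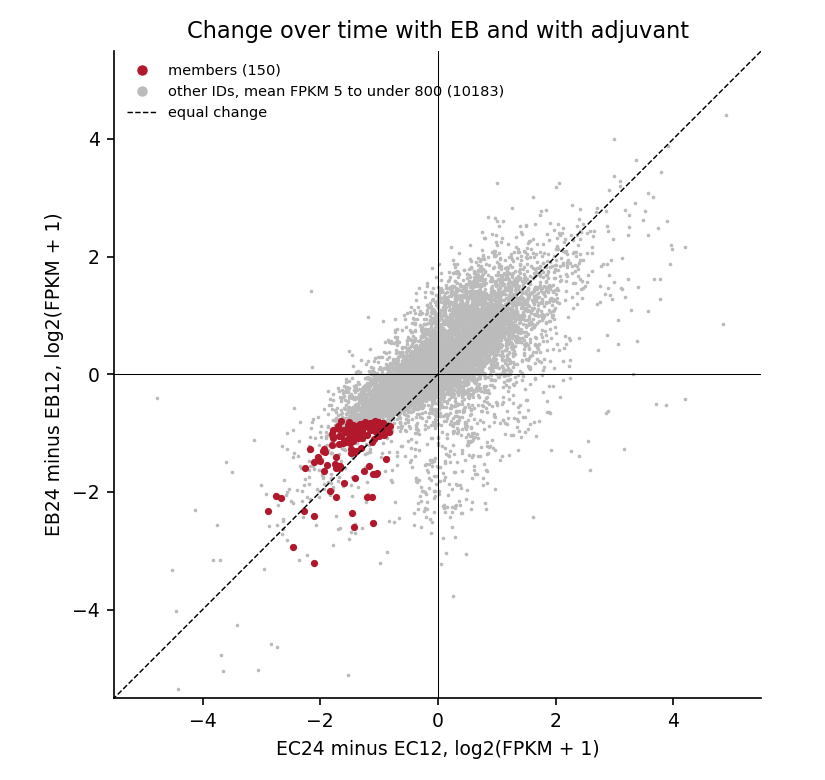
Change from 12 h to 24 h in log2(FPKM + 1), EC24 minus EC12 on the x axis and EB24 minus EB12 on the y axis, one point per ID. The 150 members (red) lie in the lower left, where 428 IDs, the members included, fell as far in both agents. Most members lie above the dashed line of equal change, 124 of them having the deeper fall in EC.

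In every member the 3 EB24 values lay below the 3 EB12 values, and the 3 EC24 values lay below the 3 EC12 values. Of all 13768 IDs tested, 19.2% showed the first order and 31% the second. In 148 members all 6 libraries at 24 h lay below all 6 at 12 h, beside 12.6% of tested IDs. The other 2 were named for this after their values were seen. BXY_0932600 had 52.9, 39.8 and 38.5 FPKM in EB24 and 32.6, 29.4 and 30.8 in EC24, against 77.6, 95.1 and 72.8 in EB12 and 61.6, 113 and 46.9 in EC12. Its EB24 replicate 1 lay above EC12 replicate 3. BXY_1064200 had 25.0 FPKM in EC24 replicate 1 and 23.5 in EC24 replicate 3, both above the 23.0 of EB12 replicate 3.

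In the limma fit over all 12 libraries, 150 of 150 members were called lower in EB24 than in EB12, where 13.1% of tested IDs were. They were likewise all called lower in EC24 than in EC12, where 25.9% were. Of tested IDs 30.3% were called higher in EB24 than in EB12 and 24.7% higher in EC24 than in EC12, with 0 members in either. Calls used a Benjamini-Hochberg adjusted p under 0.05. Since the rule used both contrasts, nothing is read from these counts. Over the tested IDs, 1418 (10.3%) were called lower in both, and the members made up 10.6% of those. All 150 members passed the filter on low values, under which 3 or more libraries had to reach 1 FPKM.

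**Figure D2:**
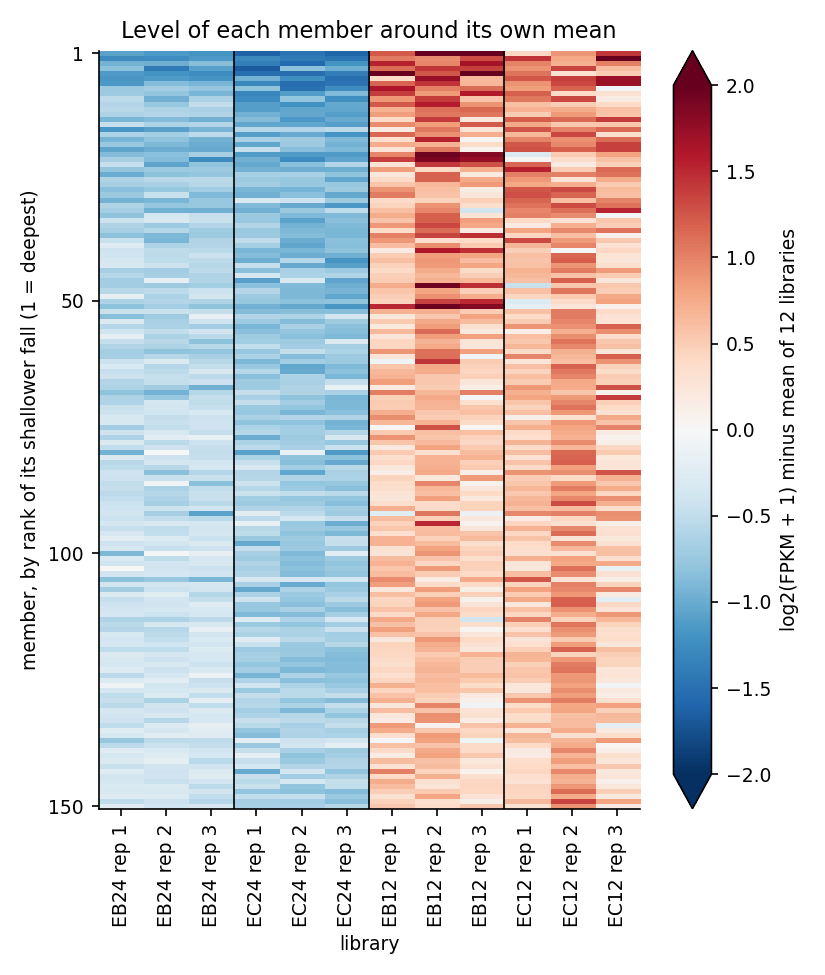
Level of each member in each library, as log2(FPKM + 1) minus that member's mean over the 12 libraries (colour, cut at 2 units), with members ordered down the page by the shallower of their 2 falls. The 6 libraries at 24 h are below the mean and the 6 at 12 h above it in nearly every row, and the contrast fades from the deepest falls at the top to the limit of the list at the bottom.

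The steepest falls left transcripts at a small part of their 12 h level. BXY_0102900 ranked first, with 9.99, 9.41 and 9.07 FPKM in EB24 and 6.53, 7.26 and 6.57 in EC24, against 52.8, 97.4 and 96.4 in EB12 and 29.6, 41.2 and 60.1 in EC12. The 24 h values were tight and the 12 h values were spread, with EB12 replicate 1 and EC12 replicate 1 lowest. It kept 11.5% of its EB12 level in EB24 and 15.5% of its EC12 level in EC24, log2 changes of -2.94 and -2.46. BXY_1379200 ranked next, with 7.94, 8.09 and 8.72 FPKM in EB24 and 7.79, 7.12 and 6.88 in EC24, against 43.6, 40.6 and 52.5 in EB12 and 58.0, 36.1 and 105 in EC12. Here the fall was deeper in EC, log2 changes of -2.32 in EB and -2.90 in EC. EC12 replicate 3 stood well above the other 12 h libraries of this gene.

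The 7 members with both falls past 2 log2 units had a median 12 h spread of 0.50, while the median was 0.29 in the 26 members that fell further in EB and 0.28 in the 124 that fell further in EC. BXY_0912300 had the deepest single fall, to 51.7, 49.4 and 47.6 FPKM in EB24, against 654, 270 and 577 in EB12. In EC it stood at 39.7, 38.9 and 43.3 FPKM in EC24, against 243, 141 and 163 in EC12. The log2 changes were -3.21 in EB and -2.10 in EC, and the 24 h levels of the agents came within 0.28 log2 units of each other. This ID was named after its values were seen.

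No member fell to 0 in any library. The mean over the 6 libraries at 24 h was under 5 FPKM in 36 members and under 2 in 2. BXY_0594000 had 1.82, 2.42 and 2.29 FPKM in EB24 and 1.55, 1.18 and 1.24 in EC24, against 13.1, 16.1 and 8.89 in EB12 and 10.7, 14.9 and 19.7 in EC12. BXY_0486000 had 2.48, 1.32 and 1.91 FPKM in EB24 and 0.94, 2.5 and 2.13 in EC24, against 12.4, 15.6 and 15.0 in EB12 and 10.5, 14.7 and 8.49 in EC12. For both genes all 24 h values lay below all 12 h values, by a wide margin. At these levels the added 1 in log2(FPKM + 1) understates the change. BXY_0594000 kept 17.2% of its EB12 mean in EB24 and 8.78% of its EC12 mean in EC24, the lowest share in EC.

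The members with the smallest difference between the falls had mean FPKM of 11.9 and 14.1, under the members' median of 18.9. BXY_0308400 had 5.55, 6.18 and 9.50 FPKM in EB24 and 6.86, 6.65 and 8.11 in EC24, against 12.8, 16.1 and 19.6 in EB12 and 14.3, 23.2 and 13.4 in EC12. Its log2 changes were -1.10 in EB and -1.09 in EC. BXY_0330300 had 9.97, 9.13 and 10.6 FPKM in EB24 and 10.9, 8.86 and 7.98 in EC24, against 15.6, 25.1 and 17.7 in EB12 and 16.2, 19.5 and 17.4 in EC12. Its log2 changes were -0.89 and -0.87. At each time the ranges of the agents overlapped for both genes. Over all members the falls came within 0.25 log2 units of each other in 48 and within 0.5 in 104.

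Below a mean of 200 FPKM the typical member fell further in EC, and at or above it further in EB. The 143 members with a mean under 200 FPKM had median log2 changes of -0.98 in EB and -1.41 in EC. The 7 members at or above 200 FPKM had medians of -1.70 in EB and -1.15 in EC, and 5 of them fell further in EB. The abundant members stood higher in EB12 than in EC12, by a median of 0.79 log2 units, which was -0.05 in the others. That is not a separate result, as the difference between the falls equals the difference between agents at 24 h minus that at 12 h. The rule bounded the one at 24 h. With 7 members in the abundant class, these values are a description of those genes. BXY_1145300 and BXY_1145100, named after their values were seen, are 2 of them. BXY_1145300 had 131, 134 and 151 FPKM in EB24, against 471, 930 and 846 in EB12. In EC it had 110, 108 and 109 FPKM in EC24, against 196, 340 and 419 in EC12. BXY_1145100 had 224, 229 and 228 FPKM in EB24, against 470, 890 and 973 in EB12. In EC it had 205, 196 and 198 FPKM in EC24, against 288, 454 and 605 in EC12. Replicate 1 was the lowest 12 h library of both genes in both agents. Their ID numbers are close, and whether the genes share reads is not known here.

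The most abundant members were BXY_0312700 and BXY_1035800. BXY_0312700 had 410, 406 and 419 FPKM in EB24 and 361, 362 and 344 in EC24, against 910, 714 and 745 in EB12 and 830, 847 and 701 in EC12. BXY_1035800 had 406, 364 and 377 FPKM in EB24 and 325, 339 and 333 in EC24, against 970, 727 and 702 in EB12 and 543, 634 and 857 in EC12. In both, EB24 lay above EC24 without overlap, while the 12 h groups overlapped. BXY_0312700 kept 52.1% of its EB12 mean in EB24 and 44.9% of its EC12 mean in EC24. BXY_1035800 kept 47.8% in EB24 and 49.0% in EC24.

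By level, the list leaned to lower FPKM than the IDs it came from. The median of the members' mean FPKM was 18.9, beside 33.3 over the 10333 IDs. It was 21.5 in the next 150 IDs in rank and 25.3 in the 150 IDs that rose most alike under the same bounds. A lean to lower levels was thus not particular to the members. Of the members, 76 (50.7%) had a mean of 5 to under 20 FPKM, where 34.3% of the 10333 IDs lay. A further 42 members stood at 20 to under 50, 25 at 50 to under 200 and 7 at 200 to under 800. There were 2.15 members per 100 IDs in the lowest class and 0.80 at 50 to under 200.

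**Figure D3:**
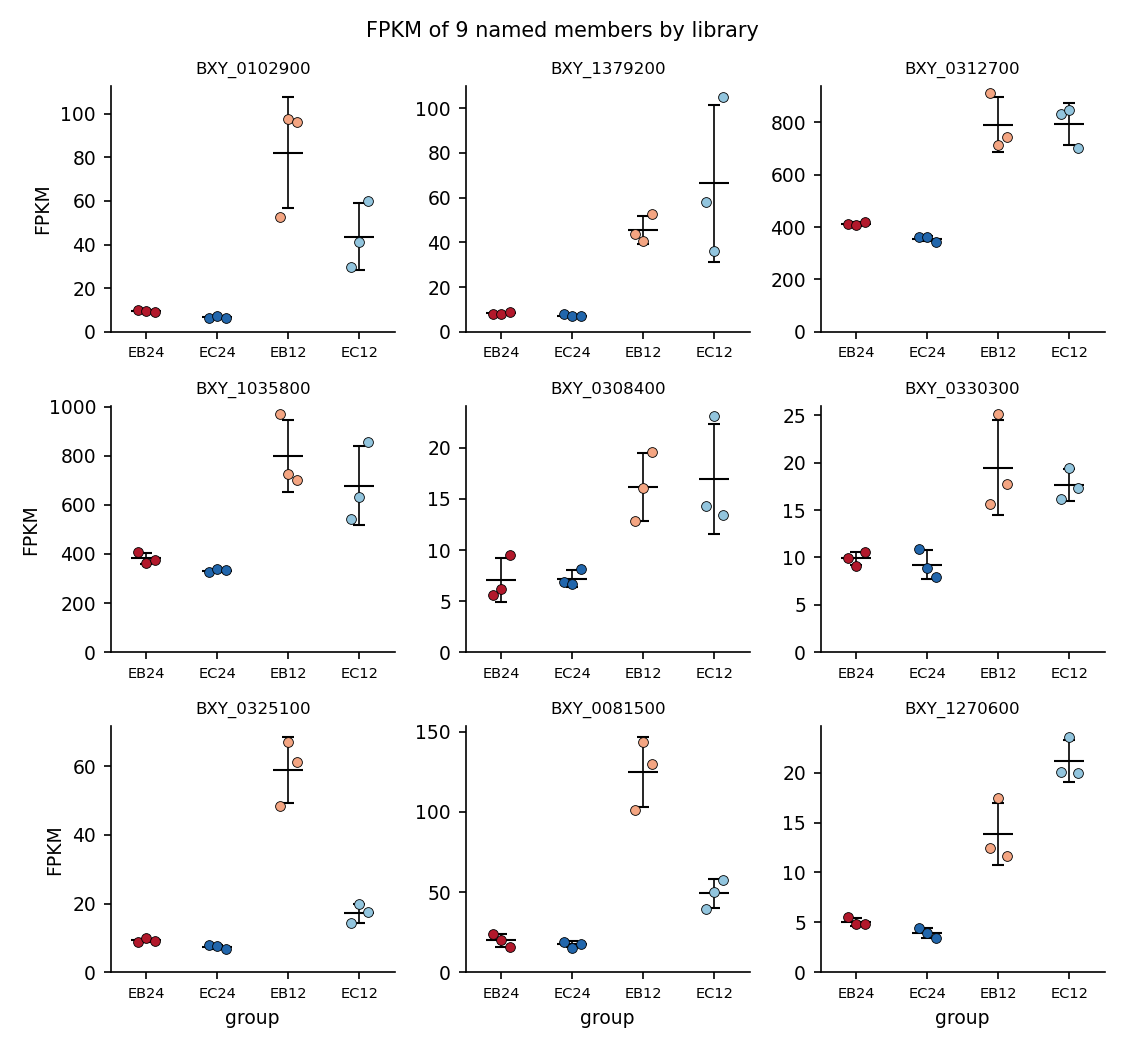
FPKM of 9 named members in each library (points), with the mean and SD of each group (n = 3; horizontal mark and bars), groups on the x axis. The 24 h values lie below the 12 h values in each panel. They are not tight in all, as EB24 runs from 5.55 to 9.50 FPKM in BXY_0308400 and from 15.6 to 23.8 in BXY_0081500. At 12 h BXY_0325100 and BXY_0081500 are higher in EB12 than in EC12 while BXY_1270600 is lower.

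The falls were not identical between agents. The log2 change was deeper in EC for 124 members (82.7%) and deeper in EB for 26, and 68.6% of the 10333 IDs had the lower change in EC. In the next 150 IDs in rank it was deeper in EC for 138 (92%), so this was not particular to the members. The members' median difference between the changes, EB minus EC, was 0.32 log2 units, beside 0.23 over the 10333 IDs. With median ratio scaling it was 0.18 and with quantile normalization 0.19, while over all tested IDs it was 0.21 unscaled and 0.07 and 0.08 with these scalings. Across the 150 members the changes in EB and EC correlated at Pearson r = 0.55, as a description. They share no library, but the rule bounded both.

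Members that fell further in EB differed from the others at 12 h. Of these 26, 24 stood higher in EB12 than in EC12, by a median of 0.52 log2 units. Of the 124 that fell further in EC, 41 did, and their median difference was -0.09. The difference between the falls equals the difference between agents at 24 h minus that at 12 h, and the rule bounded the one at 24 h.

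BXY_0325100 and BXY_0081500 had the largest excess of the fall in EB. BXY_0325100 had 8.91, 9.92 and 8.99 FPKM in EB24 and 7.97, 7.62 and 6.81 in EC24, against 48.4, 67.1 and 61.3 in EB12 and 14.3, 19.8 and 17.5 in EC12. The lowest EB12 value was above the highest EC12 value. It kept 15.7% of its EB12 mean in EB24 and 43.4% of its EC12 mean in EC24, log2 changes of -2.53 and -1.10. BXY_0081500 had 23.8, 20.4 and 15.6 FPKM in EB24 and 19.0, 15.4 and 17.8 in EC24, against 101, 144 and 130 in EB12 and 39.7, 50.2 and 57.5 in EC12. Its 12 h groups did not overlap either, and its log2 changes were -2.59 in EB and -1.43 in EC.

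BXY_1270600 and BXY_0060900 had the largest excess of the fall in EC. BXY_1270600 had 5.55, 4.83 and 4.84 FPKM in EB24 and 4.40, 3.92 and 3.48 in EC24, against 12.5, 17.4 and 11.7 in EB12 and 20.03, 23.6 and 19.95 in EC12. All EB12 values lay below all EC12 values, and all EB24 values above all EC24 values. The log2 changes were -1.27 in EB and -2.17 in EC. BXY_0060900 had 8.82, 9.35 and 8.37 FPKM in EB24 and 7.78, 7.74 and 6.83 in EC24, against 18.2, 16.3 and 14.2 in EB12 and 20.7, 34.7 and 23.1 in EC12. Its log2 changes were -0.80 and -1.65, and it was the last but 1 inside the limit of the list.

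In the limma fit, 4 members differed in the size of the fall between agents (adjusted p under 0.05), 1 with the shallower and 3 with the deeper fall in EB. Of all tested IDs 6.46% were called in the first direction and 1.86% in the second, and the rule used these values too. The count was 1 without EB24 replicate 2 or 3, without any 1 of the EC24 replicates or without EB12 replicate 3, and 2 without EB24 replicate 1. All of these calls were of a deeper fall in EB. In the same fits 0.893% to 2.30% of tested IDs were called with the shallower and 0.392% to 1.02% with the deeper fall in EB. Leaving out EB12 replicate 2 gave 18 with the shallower and 4 with the deeper fall in EB, beside 13.1% and 4.83% of tested IDs. Leaving out EC12 replicate 1 gave 6 and 5, beside 9.70% and 3.58%. Leaving out both EB12 replicate 2 and EC12 replicate 2 gave 23 and 6, beside 16.1% and 5.34%. The more frequent direction among the called members thus turned with these libraries.

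At 24 h, EB24 lay above EC24 in mean log2(FPKM + 1) for 131 members (87.3%) and below it for 19. The median difference was 0.27 log2 units, beside 0.15 over the 10333 IDs, 65.5% of which were above 0. With median ratio scaling the members' median was 0.19 and with quantile normalization 0.17, while the median of all tested IDs moved to 0.06 and 0.03. The 3 EB24 values lay above the 3 EC24 values in 80 members, as they did in 40.4% of tested IDs. They lay below in 5 members, as in 19.7% of tested IDs. Those 5, named after their values were seen, were BXY_0717400, BXY_0641200, BXY_1535900, BXY_1579900 and BXY_0229700.

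The members at the ends of this range were near the bound of 0.5 set by the rule. BXY_1693500 had 8.87, 9.80 and 8.82 FPKM in EB24 and 6.91, 5.32 and 6.46 in EC24, against 18.7, 29.4 and 22.8 in EB12 and 16.6, 15.3 and 18.6 in EC12. BXY_0901400 had 82.5, 73.0 and 75.1 FPKM in EB24 and 55.1, 55.1 and 52.7 in EC24, against 220, 204 and 268 in EB12 and 192, 167 and 167 in EC12. In both, the EB libraries lay above the EC libraries at each time. At the other end, BXY_0717400 had 6.15, 6.53 and 7.40 FPKM in EB24 and 9.79, 9.67 and 10.04 in EC24, against 17.2, 32.3 and 18.1 in EB12 and 37.3, 30.7 and 34.0 in EC12. BXY_0641200 had 13.9, 14.6 and 12.9 FPKM in EB24 and 20.03, 19.7 and 19.5 in EC24, against 49.4, 28.2 and 43.4 in EB12 and 61.4, 30.8 and 27.7 in EC12. Their 24 h groups did not overlap, while at 12 h both genes had overlapping groups.

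The limma fit over 12 libraries called 8 members higher and 0 lower in EB24 than in EC24, beside 14.5% and 4.74% of tested IDs. The rule used this contrast as well. With median ratio scaling the calls were 2 higher and 1 lower, beside 7.36% and 5.69% of tested IDs. With quantile normalization they were 1 and 1, beside 9.71% and 7.73%. Fitted on the 6 libraries at 24 h alone, 61 members were called higher and 3 lower, beside 35.9% and 16.9% of tested IDs. The count of calls was 0 without EB24 replicate 1 or EC24 replicate 3, 1 without EB24 replicate 2 or 3, and 2 without EC24 replicate 1 or 2. In these 6 fits 5.21% to 7.63% of tested IDs were called higher and 1.90% to 2.25% lower. Leaving out EB12 replicate 2 gave 14 higher and 1 lower, beside 18.4% and 6.71% of tested IDs. Leaving out EC12 replicate 2 gave 18 and 1, beside 16.7% and 5.11%, and leaving out both gave 32 and 2, beside 22.4% and 7.85%.

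At 12 h the median difference over the members, EB12 minus EC12, was -0.04 log2 units, and 65 of 150 members were higher in EB12. The median was 0.02 with median ratio scaling, 0.10 without EC12 replicate 2 and 0.0048 without EB12 replicate 3, so it had no settled direction. Single members ranged from -0.81 to 1.72. The 12-library limma fit called 3 members higher and 0 lower, beside 0.0726% and 0.0436% of tested IDs, namely BXY_0325100, BXY_0081500 and BXY_0858300. BXY_0858300, named because it was called, had 346, 436 and 477 FPKM in EB12, against 227, 259 and 183 in EC12. Fitted on the 6 libraries at 12 h alone, limma called 0 members and 0% of tested IDs, the smallest adjusted p of a member being 0.392, with 20 members at an unadjusted p under 0.05. Without EB12 replicate 1 the calls were 6 higher and 0 lower, beside 0.131% and 0.116% of tested IDs. Without EB12 replicate 2 they turned to 5 higher and 14 lower, beside 0.966% and 1.29%. Without both EB12 replicate 2 and EC12 replicate 2 they were 4 higher and 16 lower, beside 1.92% and 2.91%. Without EB12 replicate 3, EB24 replicate 2, EC24 replicate 2 or EC24 replicate 3, 1 was called higher and 0 lower. The shares of tested IDs were 0.0218% higher and 0.00726% lower without EB12 replicate 3, and 0.0363% and 0% in each of the others.

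As a share of all FPKM, the members together took 0.460% ± 0.010 in EB24 and 0.381% ± 0.015 in EC24, against 1.28% ± 0.12 in EB12 and 1.12% ± 0.08 in EC12 (SD, n = 3 each). Single libraries lay between 0.449% and 0.466% in EB24 and between 0.369% and 0.398% in EC24. They lay between 1.15% and 1.39% in EB12 and between 1.04% and 1.20% in EC12. The members' median FPKM was 11.8 ± 0.36 in EB24 and 9.66 ± 0.59 in EC24, against 26.8 ± 3.09 in EB12 and 26.9 ± 3.35 in EC12.

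**Figure D4:**
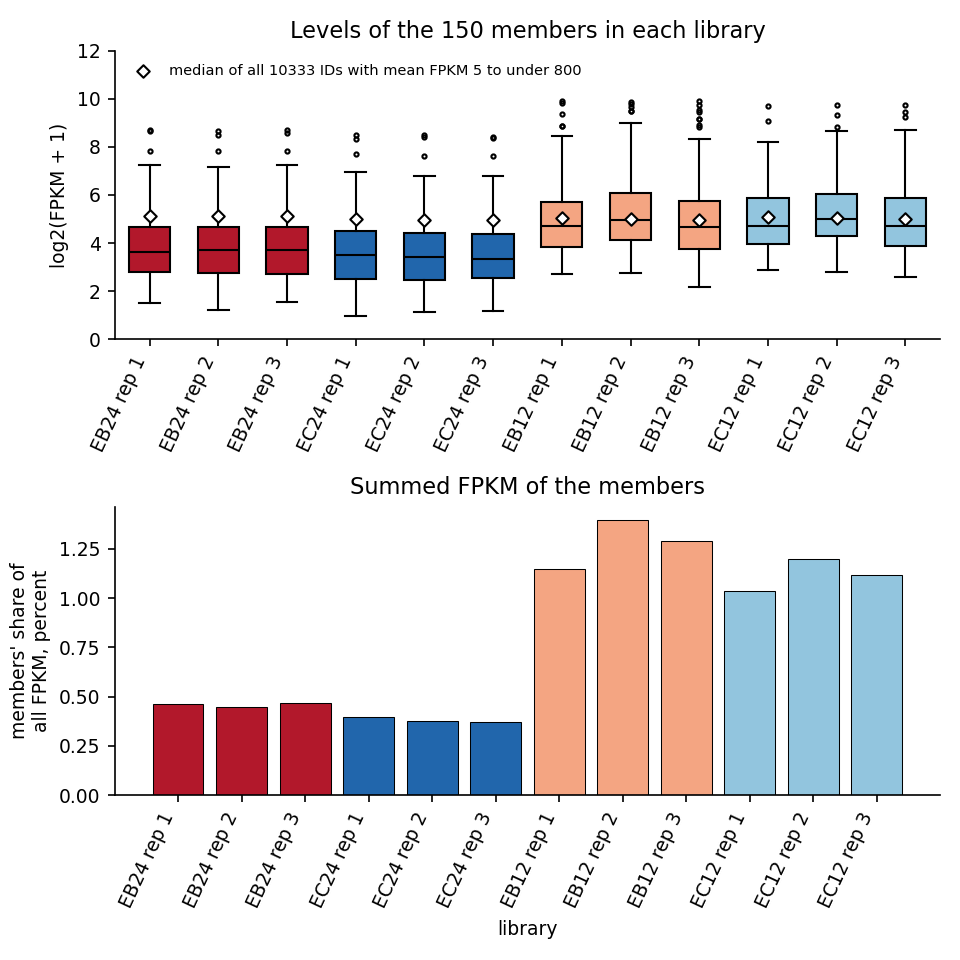
Upper panel, log2(FPKM + 1) of the 150 members in each library (box, quartiles; line, median; whiskers, to 1.5 times the box; circles, members beyond), with the median of all 10333 IDs considered as a diamond. Lower panel, the members' share of all FPKM in percent, which is under 0.47% in each 24 h library and above 1% in each 12 h library.

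The 12 h libraries were not alike for these genes. In EB12, replicate 2 held the highest of the 3 values for 90 members (60.0%), beside 46.5% of the 10333 IDs. In EC12, replicate 2 did so for 91 members (60.7%), beside 29.5%. The median deviation of the members from their group mean was 0.15 log2 units in EB12 replicate 2 and 0.21 in EC12 replicate 2. It was -0.07 to -0.17 in the other 4 libraries at 12 h and -0.04 to 0.05 at 24 h. Over the 10333 IDs the medians of all 12 libraries lay between -0.03 and 0.05. The labels do not say what a shared number means, and its part in the falls was not tested. Without both of these libraries, 147 members were called lower in EB24 than in EB12 and 150 in EC24 than in EC12, with median log2 changes of -0.96 and -1.25. Of tested IDs 14.2% and 27.0% were called lower in that fit. The members were chosen on both contrasts, so these counts are a description. The rule applied without these libraries picked 119 of the 150 again.

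Replicates at 24 h were closely grouped. The median SD of log2(FPKM + 1) over the members was 0.09 in EB24 and 0.12 in EC24, beside 0.08 and 0.10 over the 10333 IDs. The rule did not use these SDs. At 12 h, where it did, the medians were 0.23 in EB12 and 0.30 in EC12, beside 0.25 and 0.24. BXY_0009200 had the smallest 12 h spread, with 105, 98.0 and 103 FPKM in EB24 and 122, 101 and 103 in EC24, against 218, 250 and 220 in EB12 and 249, 236 and 227 in EC12. BXY_0395300 was next, with 150, 143 and 146 FPKM in EB24 and 115, 110 and 101 in EC24, against 245, 263 and 296 in EB12 and 294, 249 and 257 in EC12. In these steady members the times separated in every library.

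BXY_0408100 and BXY_0410100 had the largest 12 h spread allowed. BXY_0408100 had 123, 116 and 113 FPKM in EB24 and 87.4, 86.7 and 94.4 in EC24, against 185, 506 and 454 in EB12 and 233, 162 and 220 in EC12. BXY_0410100 had 128, 125 and 128 FPKM in EB24 and 116, 111 and 105 in EC24, against 346, 799 and 576 in EB12 and 152, 303 and 300.2 in EC12. The 24 h values of both were nearly flat, and EB12 replicate 1 was the lowest EB12 library in both.

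The limits of the list cut through a continuous range. BXY_0161200 was the last member, with log2 changes of -0.80 in EB and -1.07 in EC, and the first ID outside, BXY_1330600, stood at -0.80 and -1.22. The next one outside, BXY_1538700, stood at -0.79 and -0.93. Without the bounds on spread and on the difference at 24 h, 428 of the 10333 IDs fell as far in both agents. Of these, 118 had a 12 h spread of 0.6 or more. Of the others, 150 were members, 160 had EB24 above EC24 by at least 0.5 and 0 had it lower by at least 0.5. EC24 enters both the fall in EC and the difference at 24 h, and EB24 likewise on its side.

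The next 150 IDs in rank were the next deepest falls of the same ranking, so their direction was set by the choice. Their median log2 changes were -0.71 in EB and -1.06 in EC, and 138 had the deeper fall in EC. EB24 lay above EC24 in 129 of them. In the 150 IDs that rose most alike under the same bounds, it did so in 74, with a median difference of 0.00, and the change in EC was the lower one in 69. These sets share all libraries with the members, so the contrast between them is a description.

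The IDs of the members were scattered. BXY numbers run in steps, and 4 members were 1 step from another member, in the pairs BXY_0430400 with BXY_0430500 and BXY_1270600 with BXY_1270700. The same count was 10 in the next 150 in rank and 2 in the 150 that rose alike. BXY_0430400 had 13.2, 12.5 and 12.2 FPKM in EB24 and 8.73, 9.14 and 9.11 in EC24, against 32.7, 43.6 and 45.2 in EB12 and 32.8, 33.9 and 30.1 in EC12. BXY_0430500 was lower, with 5.83, 5.60 and 4.91 FPKM in EB24 and 3.76, 3.89 and 4.84 in EC24, against 11.9, 9.97 and 11.5 in EB12 and 10.9, 8.65 and 8.26 in EC12. BXY_1270700 had 24.6, 24.2 and 27.4 FPKM in EB24 and 21.8, 24.9 and 23.6 in EC24, against 51.8, 67.3 and 51.9 in EB12 and 64.9, 82.1 and 72.6 in EC12. Like BXY_1270600 it fell further in EC, with log2 changes of -1.13 in EB and -1.60 in EC. Genome positions were not used here, so nearness of numbers is not nearness on a chromosome.

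Whether deep falls in one agent were also seen in the other was asked with libraries that the choice had not used. The 150 BXY IDs with the deepest fall in the EC libraries alone, under the same limits on level and 12 h spread, were read in the 6 EB libraries. Of these, 149 were lower in EB24 than in EB12, and 132 were called lower in limma fitted on the EB libraries alone (adjusted p under 0.05). Of all 13768 tested IDs 11.4% were called lower there. The median log2 change in EB was -1.05, beside 0.15 over all tested IDs, and 0 were called higher, where 28.7% of tested IDs were. With 1 EB library left out in turn the count was 108 to 138, and 5.45% to 15.8% of tested IDs were called lower.

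The reverse choice gave the same count. Of the 150 IDs with the deepest fall in the EB libraries alone, 143 were lower in EC24 than in EC12 and 132 were called lower in limma fitted on the EC libraries alone (adjusted p under 0.05), where 24.7% of tested IDs were. The median log2 change in EC was -1.71, beside 0.04 over all tested IDs. BXY_0364600 was the 1 called higher, at 1.09, where 23.7% of tested IDs were, and 0 were with any 1 EC24 replicate left out. With 1 EC library left out in turn the count was 128 to 133, and 17.5% to 28.1% of tested IDs were called lower. These lists held 32 and 51 of the 150 members, and they shared 52 IDs, 34.7% of each. The libraries of an agent were not used to choose the list read in them, but both agents share the time points, and any batch of the times is shared with them. Deviations of 12 h libraries from their group means also correlated between the agents, from -0.57 to 0.53 over tested IDs.

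**Figure D5:**
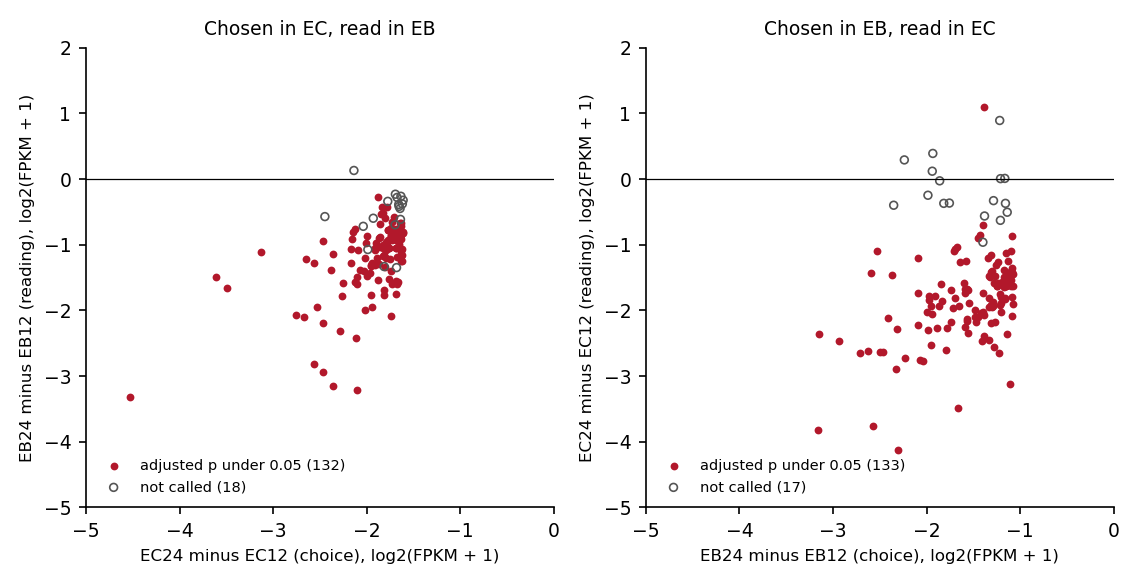
Left, the 150 IDs chosen for the deepest fall in the EC libraries, with that change on the x axis and their change in the EB libraries on the y axis; right, the reverse (log2(FPKM + 1), 24 h minus 12 h). Filled points passed limma in the reading libraries at an adjusted p under 0.05, 132 of 150 on the left and 133 on the right, of which 1 was higher, and nearly all points lie below 0.

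The rule was also applied with 1 replicate number left out of every group, and the 4 left-out libraries were read, with no test. Of the 150 IDs so chosen, 147 were lower at 24 h in both agents in the libraries numbered 1, 145 in those numbered 2 and 149 in those numbered 3. Over the 10333 IDs the shares were 33.1%, 39.6% and 31.2%. Both changes were -1 log2 unit or lower in 46, 84 and 43 of the chosen IDs, beside 2.55%, 3.42% and 1.92%. The median left-out changes were -0.87, -1.04 and -0.86 in EB and -1.21, -1.62 and -1.25 in EC. The lists held 107, 106 and 113 of the members.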

How the data were processed

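Values were deposited by the authors as FPKM, rounded to 2 decimals, for 18036 IDs across 12 libraries. Per the submitters' processing notes, TopHat2 2.1.1 was used. How fragments were counted, on which build and annotation, and whether by strand, is not given in the sources used here. Each value column matched 1 library title. Set against EC24 replicate 1, the steps of low FPKM values fitted 2 relative depths in each of the other 11 libraries, which differed by a factor of about 2, so depth is unknown and no counting interval is given. Reads of near-identical genes cannot be told apart.

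From the deposited values log2(FPKM + 1) was computed, and 13768 IDs (3 or more libraries reaching 1 FPKM) were tested with limma 3.58.1 in R 4.3.3. The fit had 1 mean per group and a variance trend, was two-sided, and used Benjamini-Hochberg adjustment over all tested IDs at 0.05. Groups and replicate numbers came from titles. The fit was tested on simulated data. The members, lists and tests were chosen with earlier results of these data known. Genes were named as at most 2 per aspect (deepest fall, level, difference between falls or agents, spread, lowest 24 h level, limit of the list, consecutive numbers), and others are marked where named. Alternatives were other pseudocounts, filters, scalings, bounds, a replicate block, the compared groups alone and leaving out libraries.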

Additional observations from a re-analysis of the deposited data

Results flagged for a closer look

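The change over time differed between agents for 4 members by the test of that difference (limma over 12 libraries, adjusted p under 0.05, EB change minus EC change in log2 units). The difference was -1.44 ± 0.22 for BXY_0325100 (SE; limma adjusted p = 0.00871), -1.16 ± 0.26 for BXY_0081500 (limma adjusted p = 0.0274), -0.89 ± 0.20 for BXY_0858300 (limma adjusted p = 0.0275) and 0.90 ± 0.24 for BXY_1270600 (limma adjusted p = 0.044). The first 3 stood higher in EB12 than in EC12, and BXY_1270600 stood lower. The fit takes 1 spread per gene over all groups, although replicates were less alike at 12 h than at 24 h. In limma on the 12 h libraries alone, the adjusted p of EB12 against EC12 was 0.392, 0.415 and 0.979 for the first 3. With any 1 library left out, the adjusted p of BXY_0325100 for the difference between the changes was 0.00486 to 0.0379. It reached 0.0751 for BXY_0081500, 0.0809 for BXY_0858300 and 0.111 for BXY_1270600, and passed 0.05 in 6, 7 and 10 of the 12 fits with 1 library left out. The rule that chose the members used the same group means, with no bound on the difference between the falls, so these 4 are a description.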

How the results depend on the processing

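The falls in EB and in EC kept their direction under every alternative run. Of 150 members, 143 to 150 were called lower in EB with 1 library left out, beside 8.51% to 14.6% of tested IDs. In EC 149 to 150 were, beside 21.5% to 28.4%. With the compared groups alone 147 were called lower in EB, beside 11.4%. The rule used these contrasts, so the counts are a description. Whether the replicate numbers pair the libraries is not given by the labels and was not settled here. Deviations of same-numbered libraries correlated at -0.17 to 0.34, with 2 of 18 pairs over 0.1. Both joined EB12 with EC12, at 0.34 for replicate 1 and 0.15 for replicate 2, while replicate 3 stood at -0.05. Stronger correlations at 12 h joined libraries of different numbers. They were 0.53 for EB12 replicate 2 with EC12 replicate 3 and 0.40 for EB12 replicate 3 with EC12 replicate 1. For EB12 replicate 1 with EC12 replicate 3 it was -0.57, and for EB12 replicate 2 with EC12 replicate 1 -0.56. Deviations from a group mean cancel within the group, so positive and negative correlations are tied together and do not show a link between given libraries. Whether 12 h libraries were linked between agents was not tested, and the fits do not model such a link. With the replicate block, 150 members were called lower in EB and 150 in EC, beside 12.8% and 25.3% of tested IDs. Calls between EB24 and EC24 then numbered 8, beside 13.5% of tested IDs higher and 4.52% lower. Those for the interaction numbered 4, beside 5.54% and 1.68%. Between EB12 and EC12 there was 1, against 3 without the block, beside 0.0363% higher and 0% lower. The share of all tested IDs called also changed between the settings below. Calls between EB24 and EC24 numbered 3 with median ratio scaling, beside 7.36% of tested IDs higher and 5.69% lower. They numbered 2 with quantile normalization, beside 9.71% and 7.73%. With the compared groups alone they numbered 64 (61 higher, 3 lower), beside 35.9% and 16.9%. Without EB12 replicate 2 and EC12 replicate 2 (chosen after seeing the data) they numbered 34 (32 higher, 2 lower, beside 22.4% and 7.85%). With 1 library left out they numbered 0 to 19, beside 5.21% to 18.4% higher and 1.90% to 6.71% lower. Calls between EB12 and EC12 numbered 1 with no filter, beside 0.0222% of tested IDs higher and 0.0111% lower. They numbered 0 with the compared groups alone, beside 0% of tested IDs, and 20 without those 2 libraries. With 1 left out they numbered 1 to 19, beside 0.0218% to 0.966% higher and 0% to 1.29% lower. The 3 calls of the 12-library fit were higher in EB12, while the 20 were 4 higher and 16 lower, beside 1.92% and 2.91% of tested IDs. Their median difference, -0.04, turned to 0.016 with median ratio scaling, 0.04 without both libraries, and -0.16 to 0.10 with 1 left out, being 0.0048 without EB12 replicate 3 and 0.10 without EC12 replicate 2. Interaction calls numbered 29 without both (23 positive, 6 negative, beside 16.1% and 5.34% of tested IDs). With 1 left out they numbered 1 to 22, beside 0.893% to 13.1% positive and 0.392% to 4.83% negative. The rule picked 115 to 141 of the members again under other scales or with 1 library left out, 117 with a spread under 0.4, and 67 with the difference at 24 h within 0.25, a bound that bars more of the list by construction. The cause of the other shifts was not tested.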
